A study of Mus musculus with 24 samples.

Results

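The enzymes that remove modified or mismatched bases from DNA were followed at the RNA level in mouse embryonic stem cells (ESCs), neuronal progenitors (NPs) and ESCs lacking TET enzymes. The 10 genes were chosen by their place in base excision repair and active demethylation and matched by symbol among the 51912 genes of the count tables. They are 6 DNA glycosylases (Tdg, Mbd4, Smug1, Neil1, Neil2 and Neil3), the AP endonuclease Apex1 and the 3 GADD45 adaptors (Gadd45a, Gadd45b and Gadd45g). All 10 had counts in each of the 9 libraries.

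RNA-seq was done on 3 libraries of each group. The ESCs were wild type, of the strain C57BL/6 X 129S5. The NPs were wild type cells of the same strain, obtained from ESCs grown as cellular aggregates and treated with retinoic acid. The TET TKO ESCs carried a triple knockout of TET1/2/3 and came from a separate line of the strain C57BL/6 X 129/sv, so genotype, line and strain cannot be told apart in the comparison of TET TKO with wild type. Depth was 20519702 to 23976914 counts in the ESC and NP libraries and 80704741 to 93210102 in the TET TKO libraries. It differed between these groups too, and the calls for Tdg and Gadd45a held when counts of the deeper libraries were drawn down to that of ESCs.

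TET dioxygenases oxidize 5-methylcytosine stepwise to 5-hydroxymethylcytosine, 5-formylcytosine and 5-carboxylcytosine. TDG excises 5-formylcytosine and 5-carboxylcytosine opposite guanine, APEX1 cuts the backbone at the resulting abasic site, and polymerase and ligase fill the gap with unmethylated cytosine. The other glycosylases of the group start the same repair at uracil, thymine or oxidized bases, and GADD45 proteins are small stress-inducible adaptors that have been placed between such repair enzymes and methylated DNA.

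The knocked-out genes were checked first. Tet1 was read at 65.9, 60.8 and 68.5 RPKM (counts scaled by exon length and library size) in ESCs and at 13.2, 16.1 and 11.3 RPKM in TET TKO. Tet2 was read at 20.5, 20.3 and 16.1 RPKM in ESCs and at 2.42, 2.70 and 2.32 RPKM in TET TKO. Both were lower in every TET TKO library and neither was at 0. Counts over a whole gene do not show which exons are missing. Tet3 stayed under 1 RPKM in all ESC and TET TKO libraries and was not tested there.

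The cell types were read from marker lists, where a gene is said to rise or fall at an adjusted p under 0.001 in edgeR's quasi-likelihood test. In NPs, 8 of 8 pluripotency markers fell and 8 of 8 neural progenitor markers rose. The summed level of the pluripotency markers was 1342 to 1388 RPKM in ESCs, 6.21 to 13.7 in NPs and 774 to 1019 in TET TKO, where 1 of the 8, Zfp42, fell in edgeR's test. There 5 of the 8 were lower and 1 higher at an unadjusted p under 0.05, and 4 fell and 1 rose by DESeq2. The NP libraries also held transcripts of other lineages. The neural progenitor list summed to 66.0 to 73.5 RPKM in ESCs and 379 to 571 in NPs, the endoderm list to 1.34 to 2.34 and 20.4 to 23.6, and the list for mesoderm and trophoblast to 14.7 to 25.8 and 349.9 to 420.3. Of these, 3 of 5 tested endoderm genes rose (Foxa2, Sox17 and Gata6), as did 2 of 5 for mesoderm and trophoblast (Krt8 and Krt18). Eomes of the latter list fell. Krt8 and Krt18, at means of 112 and 277 RPKM, held most of that list's sum in NPs. T, Mixl1, Cdx2 and Tbx6 were named after their values were seen. T went from 0.787 RPKM in ESCs to 0.217 in NPs without passing, and Mixl1, not tested, from 0.299 to 0.0735. Cdx2 went up from 0.163 to 1.36 RPKM without passing (log2 fold change 3.08, adjusted p = 0.00707). Tbx6, not tested, went from 0.568 to 0.738 RPKM. Of the 5 tested, 3 were higher and 2 lower at an unadjusted p under 0.05. Of 8 neuron markers 4 rose, among them Dcx, Snap25 and Map2, and 1 fell (Stmn2, named after its values were seen); that list summed to 124 to 139 RPKM in ESCs and 81.5 to 194 in NPs. In TET TKO the sums were 17.1 to 43.1 RPKM for neural progenitors, 49.3 to 95.8 for neurons, 1.603 to 1.71 for endoderm and 101.3 to 345 for mesoderm and trophoblast. Of the last list 0 of 5 rose or fell there in edgeR's test, where 2.37% of all genes rose and 1.46% fell. At an unadjusted p under 0.05, 3 of the list were higher and 1 lower, and 3 rose by DESeq2. Of the 4 neural progenitor markers tested in TET TKO, 0 rose or fell in edgeR's test. At an unadjusted p under 0.05, 2 were higher and 1 lower, and by DESeq2 1 rose and 1 fell. Vim, named after its values were seen, had means of 63.4 RPKM in ESCs and 16.0 in TET TKO. The mean of Vim dropped by more than the sum of the list did, while Nes was higher, with 4.02 and 11.0. No marker of these lists was at 0 in all libraries of a group. The part of these other cells in the values of the repair genes was not tested.

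As counted, the levels of the 10 genes spanned more than 100-fold in ESCs. The low end was Tdg, of whose exon windows of 50 bases 49.2% occur more than once in the genome. Reads matching several places were not counted, so its level is a lower estimate. Apex1 was the most abundant at 40.04 ± 3.46 RPKM (SD, n = 3 here and for all means that follow), 4.52-fold above Gadd45a at 8.85 ± 1.37, and the ranges of these neighbours did not overlap. Smug1 (6.67 ± 0.629), Neil1 (6.42 ± 0.468), Mbd4 (6.27 ± 0.353), Gadd45b (5.65 ± 0.752), Neil2 (4.06 ± 1.41) and Gadd45g (3.97 ± 0.973) followed in RPKM, and each of these overlapped with the next in the order. Neil3 (1.57 ± 0.124 RPKM) and Tdg (0.333 ± 0.00866 RPKM) closed the order, each below the range of the gene before it. In NPs the order by RPKM over the full exon length was led by Gadd45g and Smug1, whose ranges overlapped, followed by Apex1. In TET TKO it was led by Apex1 and Gadd45a, with overlapping ranges. These places depend on the length used, since 61.7% of the exon bases of Apex1 are shared with another gene. Per unshared base Apex1 had the highest mean in each group, with 77.3 RPKM against 63.5 for Gadd45g in NPs and 84.1 against 39.8 for Gadd45a in TET TKO. As counted, Tdg had the lowest mean in all groups, although its range in TET TKO overlapped with that of Neil3. This place was not corrected for the repeated windows of Tdg.

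**Figure D1:**
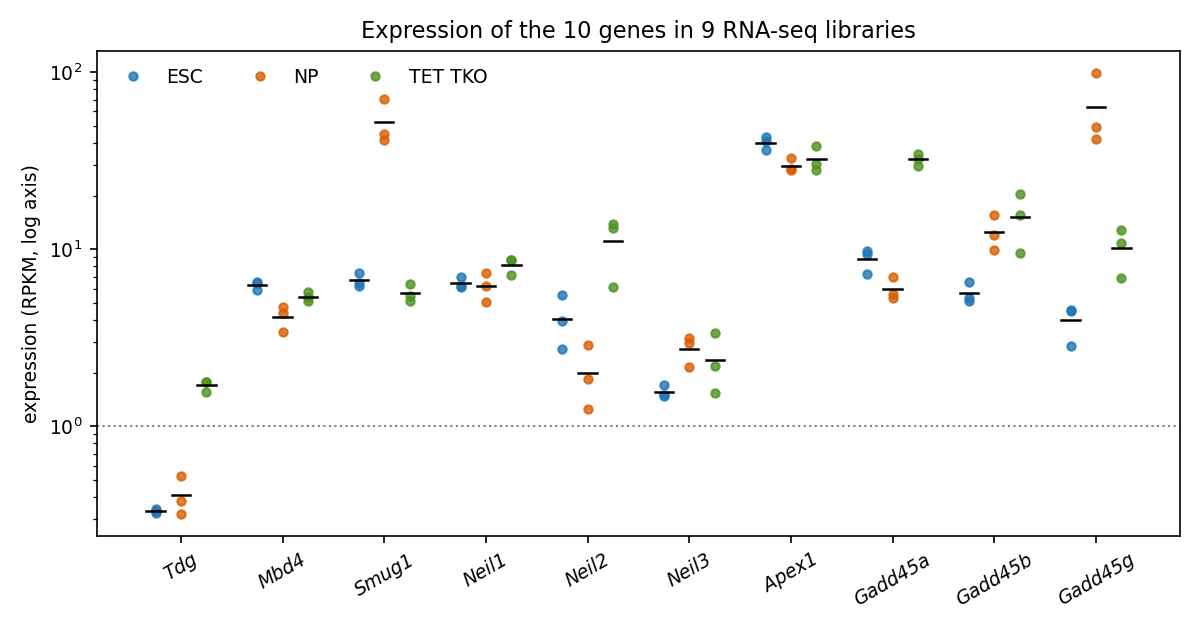
Expression of the 10 genes in RPKM on a log axis, with 1 point per library, a black line at the mean of 3 libraries of a group and a dotted line at 1 RPKM. The NP points of Smug1 and Gadd45g stand above all ESC points, and those of Gadd45a in TET TKO, between 29.4 and 34.6 RPKM, stand above all others of that gene.

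The low counts of Tdg cannot be read alone. Of the 4835 windows of 50 bases in its exons, the length of the reads, 49.2% occur more than once in the genome, whereas the share was 5.65% for Neil3, 2.29% for Mbd4, 1.64% for Neil1, 0.408% for Apex1 and 0% for the other 5 genes. Of the Tdg windows, 37.7% occur also at the processed pseudogene Gm9855 (chr10:42054113-42055306, minus strand) and 28.2% at the processed pseudogene Tdg-ps (chr15:82516311-82519278, plus strand), within 3000 bp of either. A stretch of 90 bases shows how alike they are. It is given on GRCm38 from coding exon 3 of Tdg (chr10:82641392-82641481, plus strand), from Gm9855 (chr10:42055014-42055103, minus strand) and from Tdg-ps (chr15:82516687-82516776, plus strand), with a base that differs from Tdg in capitals.
Tdg: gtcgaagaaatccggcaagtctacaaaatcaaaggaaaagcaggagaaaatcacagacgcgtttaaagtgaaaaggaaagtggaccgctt
Gm9855: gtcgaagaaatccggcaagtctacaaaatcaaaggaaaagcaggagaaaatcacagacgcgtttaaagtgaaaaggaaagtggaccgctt
Tdg-ps: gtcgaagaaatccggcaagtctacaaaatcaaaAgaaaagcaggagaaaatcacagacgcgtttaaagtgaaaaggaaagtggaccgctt
The stretch of Gm9855 has 0 mismatches to Tdg and that of Tdg-ps has 1. A 50-base read from the first of these stretches has the same letters as a read from the second. Such a read matches several places and was counted for neither gene.

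Differentiation to NPs was the first comparison. Smug1 and Gadd45g rose, 2 of the 9 genes tested, where 17.9% of all 15197 genes tested rose. Of the 9, 0 fell by edgeR's test, where 16% of all genes fell. By DESeq2 0 of the 9 fell too, and 4 were lower at an unadjusted p under 0.05. The ranges of ESC and NP libraries did not overlap for 7 of the 9, where this held for 71.9% of all genes. The median log2 fold change was -0.06 over the 9 and 0.04 over all genes tested. The shares that rose or separated were close to those of all genes tested. Both rises also passed the study's limits, which add a fold change of at least 3, as 12.4% of all genes did in this direction.

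Smug1 removes uracil and 5-hydroxymethyluracil from DNA. It was read at 6.47, 6.17 and 7.38 RPKM in ESCs and at 70.6, 41.2 and 44.7 RPKM in NPs. Every NP library was several times above every ESC library. The mean rose from 6.67 ± 0.629 to 52.2 ± 16.0 RPKM, a log2 fold change of 2.97 (SE 0.22; 7.81-fold, 95% interval 5.496 to 11.1; adjusted p = 1.09e-05). In TET TKO Smug1 was read at 5.46, 5.12 and 6.37 RPKM, which overlapped with the ESC range, with a log2 fold change of -0.25 (95% interval -0.60 to 0.10, adjusted p = 0.236).

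Smug1 lies on the minus strand at chr15:103153307-103158002 of GRCm38, and none of its exon bases are shared with another gene of the count annotation. Its nearest neighbours were looked at after its values were seen. D930007P13Rik, annotated as a long intergenic non-coding RNA on the same strand, ends 6479 bp from the low-coordinate end of Smug1, that is, downstream of it. It had 0 counts in each ESC library, 1102, 485 and 742 counts in NPs and 0, 1 and 2 counts in TET TKO, so its counts were concentrated in the libraries with high Smug1. Cbx5, the next gene on the other side, had a log2 fold change of -0.08 in NPs (adjusted p = 0.616). Over the 9 libraries, the genes with the pattern most like that of Smug1 were Tox2 and Ttyh3, whose centred log2(RPKM + 1) values differed from it by a root mean square of 0.11 and 0.12.

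Gadd45g, the family member known for its induction in the developing nervous system, was read at 4.57, 4.49 and 2.84 RPKM in ESCs and at 99.2, 42.2 and 49.1 RPKM in NPs. NP replicate 1 was about the sum of the others, and all NP libraries were far above those of ESCs. The mean rose from 3.97 ± 0.973 to 63.5 ± 31.1 RPKM, a log2 fold change of 4.003 (SE 0.38; 16.0-fold, 95% interval 8.81 to 29.2; adjusted p = 3.57e-05). The gene with the pattern most like it was Nes, the progenitor intermediate filament, at a root mean square difference of 0.30, followed by Celsr2 at 0.34.

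Gadd45b, the family member described for activity-dependent demethylation in neurons, was read at 5.32, 6.51 and 5.12 RPKM in ESCs and at 15.6, 12.0 and 9.97 RPKM in NPs. All NP libraries were above all ESC libraries, but the log2 fold change of 1.15 (95% interval 0.65 to 1.64) had an adjusted p of 0.00164 and did not pass. With DESeq2 it did, at 1.51e-05. Gadd45a, a p53-responsive gene, was read at 9.46, 9.81 and 7.29 RPKM in ESCs and at 5.61, 6.97 and 5.31 RPKM in NPs. These NP values lay below those of ESCs, with a log2 fold change of -0.57 and an adjusted p of 0.0326. The summed level of the family was 15.2 to 20.8 RPKM in ESCs and 61.2 to 120.5 in NPs, most of it from Gadd45g in the latter.

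The RefSeq promoters of the 3 GADD45 genes, from 250 bases before to 50 bases after the start on GRCm38.p6, are shown because this family held a rise in NPs and, as described further on, in TET TKO. CpG dinucleotides, the substrate of the methylation that the pathway removes, are in capitals. Gadd45a is at chr6:67037358-67037657 on the minus strand, Gadd45b at chr10:80929841-80930140 on the plus strand and Gadd45g at chr13:51846425-51846724 on the plus strand.
Gadd45a: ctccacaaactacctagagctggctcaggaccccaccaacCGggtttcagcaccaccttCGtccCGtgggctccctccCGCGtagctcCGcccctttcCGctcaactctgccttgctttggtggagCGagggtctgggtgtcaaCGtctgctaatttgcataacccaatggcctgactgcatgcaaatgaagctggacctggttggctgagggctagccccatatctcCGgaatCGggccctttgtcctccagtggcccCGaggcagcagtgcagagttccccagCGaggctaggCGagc
Gadd45b: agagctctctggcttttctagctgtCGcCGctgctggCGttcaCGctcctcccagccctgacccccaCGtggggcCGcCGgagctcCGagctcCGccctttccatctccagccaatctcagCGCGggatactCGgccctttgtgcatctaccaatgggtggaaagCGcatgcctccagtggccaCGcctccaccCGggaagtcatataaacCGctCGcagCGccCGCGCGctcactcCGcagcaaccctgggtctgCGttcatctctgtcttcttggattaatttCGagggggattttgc
Gadd45g: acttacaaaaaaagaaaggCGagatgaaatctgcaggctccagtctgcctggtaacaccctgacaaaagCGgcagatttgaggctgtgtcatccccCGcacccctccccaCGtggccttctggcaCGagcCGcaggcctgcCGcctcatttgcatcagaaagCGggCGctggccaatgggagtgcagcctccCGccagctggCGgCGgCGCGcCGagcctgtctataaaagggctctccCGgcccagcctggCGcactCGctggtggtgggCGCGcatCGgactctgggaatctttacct
They hold 14, 24 and 21 CpGs for Gadd45a, Gadd45b and Gadd45g, against a median of 7 in 32851 promoters of this length. Of all promoters, 63.7%, 80.0% and 75.2% held fewer. Promoters were found for 9 of the 10 genes, all but Neil2. CpG counts of the others were 31 for Apex1, 26 for Tdg, 25 for Mbd4, 17 for Neil1, 15 for Smug1 and 14 for Neil3. The letters TATAAA, searched on both strands, occur in the promoters of Gadd45b, Gadd45g and Neil1 and in 13.6% of all. The cyclic AMP response letters TGACGTCA occur in that of Tdg, and in 1.79% of all. CCAAT occurs in the promoters of Gadd45a, Mbd4, Gadd45b, Tdg, Gadd45g, Apex1 and Smug1, and in 37.4% of all. The E-box CAGCTG occurs in those of Neil1 and Gadd45g (16.3% of all), and the E2F letters TTTCCCGC in none of the 9 (1.07% of all). The RefSeq start used for Smug1 lies upstream of the gene model in the count tables.

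The remaining glycosylases did not pass in NPs. Mbd4, which takes thymine or uracil out of mismatches at CpG sites, was read at 6.51, 6.42 and 5.86 RPKM in ESCs and at 4.37, 3.39 and 4.74 RPKM in NPs. The NP values were all lower, with a log2 fold change of -0.59 (95% interval -0.98 to -0.20, adjusted p = 0.0154). Neil1, Neil2 and Neil3 excise oxidized bases, and NEIL1 and NEIL2 can also assist TDG at its abasic product. Neil1 ranged from 6.12 to 6.96 RPKM in ESCs and from 5.005 to 7.35 in NPs, and its log2 fold change of -0.06 (95% interval -0.51 to 0.40) had no stable sign, turning to 0.08 without NP replicate 3. Neil2 was read at 3.92, 2.72 and 5.54 RPKM in ESCs and at 1.85, 2.90 and 1.25 in NPs, with overlapping ranges and a log2 fold change of -1.03 (95% interval -1.88 to -0.18, adjusted p = 0.038). Neil3, a glycosylase of dividing cells, was read at 1.49, 1.51 and 1.71 RPKM in ESCs and at 3.14, 2.94 and 2.15 in NPs. Its NP values were all higher, at a log2 fold change of 0.80 (95% interval 0.34 to 1.26, adjusted p = 0.00771).

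Apex1 was read at 41.1, 42.9 and 36.2 RPKM in ESCs, at 32.6, 28.4 and 27.9 RPKM in NPs and at 30.2, 38.5 and 28.03 RPKM in TET TKO. The NP libraries lay below the ESC libraries and the TET TKO libraries overlapped with them. The log2 fold change was -0.44 in NPs (95% interval -0.73 to -0.14, adjusted p = 0.0164) and -0.32 in TET TKO (95% interval -0.66 to 0.01, adjusted p = 0.119). Its level is a lower estimate. Of its 1422 exon bases, 877 are also exon of Pip4p1 on the opposite strand, and reads were counted without strand and not assigned where 2 genes overlap. Per unshared base, Apex1 was at 104 ± 9.04 RPKM in ESCs, at 77.3 ± 6.81 RPKM in NPs and at 84.1 ± 14.5 RPKM in TET TKO, the highest mean of the 10 genes in each group. Pip4p1 itself had a log2 fold change of -0.71 in NPs (adjusted p = 0.00238) and -0.25 in TET TKO (adjusted p = 0.223).

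The loss of TET enzymes was the second comparison, and it used the same ESC libraries as the first. Tdg and Gadd45a rose, 2 of the 10 genes, where 2.37% of all 13939 genes tested rose. Both also passed the study's limits, as 1.1% of all genes did in this direction, but the rise of Tdg was absent once the counts of its pseudogenes were added. By edgeR's test 0 of the 10 fell, where 1.46% of all genes did; 0 were lower at an unadjusted p under 0.05, and 0 fell by DESeq2. The library ranges of TET TKO and ESCs did not overlap for 7 of the 10, where this held for 51.8% of all genes. The median log2 fold change was 0.97 over the 10 and 0.12 over all genes tested. The number that rose, the separation of ranges and this median all include Tdg as counted, at 2.34. With its pseudogenes added, that value was -0.09, and the median was not taken again with it.

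**Figure D2:**
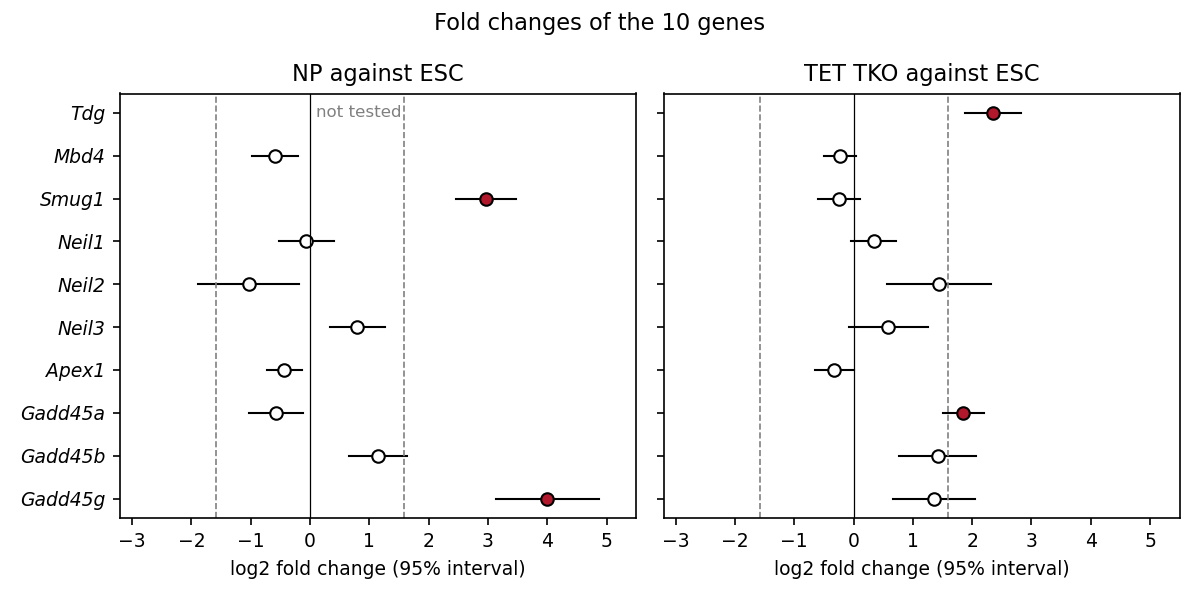
Log2 fold changes of the 10 genes in NPs and TET TKO against ESCs, with 95% intervals; filled points have an adjusted p under 0.001 and dashed lines mark 3-fold. Smug1 at 2.97 and Gadd45g at 4.003 in NPs, and Tdg at 2.34 and Gadd45a at 1.85 in TET TKO, lie past the dashed line with filled points.

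Gadd45a was read at 32.5, 34.6 and 29.4 RPKM in TET TKO, against 9.46, 9.81 and 7.29 in ESCs. The TET TKO libraries lay close together and far above the others. The mean rose from 8.85 ± 1.37 to 32.2 ± 2.604 RPKM, a log2 fold change of 1.85 (SE 0.15; 3.61-fold, 95% interval 2.84 to 4.59; adjusted p = 0.000223). The call held without TET TKO replicate 2 or 3 and was lost without the others, at an adjusted p of 0.00266, 0.00216 and 0.00134 without ESC replicate 1, 2 and 3, and 0.00139 without TET TKO replicate 1. Of the exon bases of Gadd45a, 19.1% are shared with E230016M11Rik on the opposite strand, which had 5 to 10 counts in ESCs and 55 to 194 in TET TKO, against 4354 to 4473 counts of Gadd45a in TET TKO. The nearest patterns over the 9 libraries were those of Ndufs5, at a root mean square difference of 0.17, and 5730507C01Rik, at 0.22.

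The other GADD45 genes were higher in TET TKO without passing. Gadd45b was read at 9.54, 15.6 and 20.5 RPKM in TET TKO, all above the 5.12 to 6.51 of ESCs, with a log2 fold change of 1.42 (95% interval 0.77 to 2.07, adjusted p = 0.00729). Gadd45g was read at 6.90, 12.9 and 10.8 RPKM, all above the 2.84 to 4.57 of ESCs, with a log2 fold change of 1.35 (95% interval 0.66 to 2.04, adjusted p = 0.0111). With DESeq2 both passed, at adjusted p of 7.44e-05 and 0.000654. The summed level of the family in TET TKO was 48.97 to 63.0 RPKM. The family thus had higher sums in both NPs and TET TKO than in ESCs, carried mainly by Gadd45g in NPs and by Gadd45a in TET TKO.

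Tdg, the glycosylase that acts on the products of TET, had 39, 38 and 44 counts in ESCs, 60, 42 and 47 in NPs and 733, 682 and 723 in TET TKO. In RPKM these were 0.341, 0.324 and 0.333 in ESCs, 0.524, 0.322 and 0.377 in NPs and 1.77, 1.78 and 1.56 in TET TKO. All TET TKO libraries were above all others, also when scaled to library size alone. The mean rose from 0.333 ± 0.00866 to 1.70 ± 0.123 RPKM, a log2 fold change of 2.34 (SE 0.20; 5.08-fold, 95% interval 3.66 to 7.04; adjusted p = 0.000295). The call held without TET TKO replicate 3 and was lost without each of the other libraries, at adjusted p of 0.00391, 0.00373 and 0.00249 without ESC replicate 1, 2 and 3, and of 0.00159 and 0.00105 without TET TKO replicate 1 and 2. In NPs Tdg was under the level required for a test, and without that filter its log2 fold change was 0.29 (adjusted p = 0.532).

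Gm9855, the pseudogene with the stretch identical to Tdg, took more counts than Tdg in all ESC and NP libraries. Reads matching both places equally were counted for neither, so the counts and sums below leave them out. It had 324, 338 and 405 counts in ESCs, 621, 457 and 550 in NPs and 659, 497 and 567 in TET TKO, while Tdg-ps had 1 to 25. Tdg made up 9.67% to 10.7% of the counts of the 3 genes in ESCs, 7.81% to 8.73% in NPs and 52.0% to 56.6% in TET TKO. Scaled to library size (CPM), Gm9855 was lower in TET TKO where Tdg was higher. It had 15.7 ± 0.661 CPM in ESCs and 7.36 ± 1.04 in TET TKO, a log2 fold change of -1.10 (adjusted p = 0.00089 in edgeR's test without a filter on low values). That fit passed more genes, with 1457 that rose against 331 in the main test, so this p is not on the footing of the main calls. Tdg had an adjusted p of 1.79e-06 in the same fit. The sum of the 3 genes was 17.7 ± 0.706 CPM in ESCs and 16.8 ± 1.55 in TET TKO. Its log2 fold change was -0.09 (95% interval -0.42 to 0.24, adjusted p = 0.659), so the rise of Tdg in TET TKO was not present in the sum. In NPs the sum was 26.3 ± 5.84 CPM, a log2 fold change of 0.57 (adjusted p = 0.0295). Summing was chosen after the values were seen. The TET TKO line is of another strain than the ESCs, and whether the reads were divided differently between gene and pseudogene there was not tested.

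**Figure D3:**
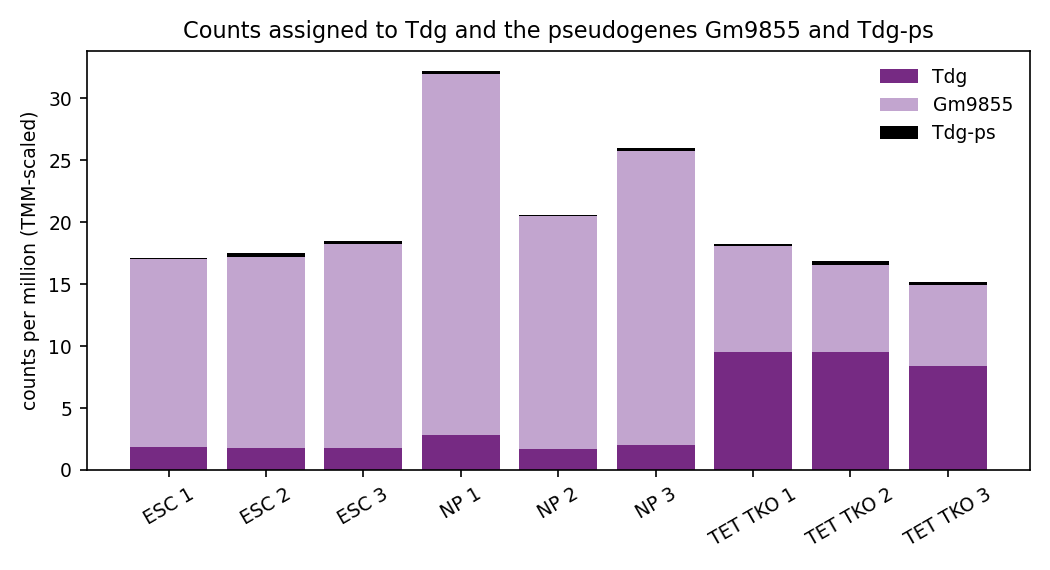
CPM scaled by TMM in each of the 9 libraries, stacked for Tdg, Gm9855 and Tdg-ps. The bars of the TET TKO libraries are about as high as those of ESCs (means of 16.8 and 17.7), while the dark Tdg part makes up 52.0% to 56.6% of them in place of 9.67% to 10.7%.

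Over all genes tested in TET TKO, 641 had at least 40% of their sampled windows repeated in the genome. Of these 2.81% were higher and 6.08% lower past the study's limits, against 1.02% and 0.98% of the 13272 with fewer repeated windows. The median log2 fold changes were -0.07 and 0.13. The genes with the pattern most like that of Tdg as counted were Csnk2a2 and B230312C02Rik, at root mean square differences of 0.08 and 0.10.

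The other glycosylases did not pass in TET TKO. Neil2 was read at 13.2, 6.15 and 14.0 RPKM, all above the 2.72 to 5.54 of ESCs, though replicate 2 was close to the upper end of that range. Its log2 fold change was 1.44 (95% interval 0.57 to 2.31, adjusted p = 0.0211), and with no filter on low values it passed, at an adjusted p of 0.000774. Neil1 was read at 8.69, 7.12 and 8.69 RPKM, just above ESCs, with a log2 fold change of 0.34 (95% interval -0.04 to 0.72, adjusted p = 0.146). Neil3 was read at 2.18, 1.55 and 3.36 RPKM, overlapping with ESCs, with a log2 fold change of 0.58 (95% interval -0.08 to 1.25, adjusted p = 0.151). Mbd4 was read at 5.74, 5.38 and 5.09 RPKM, all below ESCs by a small margin, with a log2 fold change of -0.22 (95% interval -0.49 to 0.05, adjusted p = 0.176). In bulk RNA, more transcript per cell and more cells with the transcript cannot be told apart for any of these genes.

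The rest of the pathway was read from lists of genes. Among 5 other DNA glycosylases, Ung, the main uracil glycosylase, fell in NPs from a mean of 26.1 to 7.49 RPKM (log2 fold change -1.80, adjusted p = 5.65e-06), which is opposite in direction to Smug1, another glycosylase for uracil. The other 4, Ogg1, Mutyh, Nthl1 and Mpg, did not pass, and the median of the list was -0.30. Of the 5, 0 were higher and 2 lower at an unadjusted p under 0.05, and 0 rose and 2 fell by DESeq2. Among 16 genes that act after the glycosylase, 1 rose and 2 fell in NPs, with a median of -0.37. Of all genes tested, 17.9% rose and 16% fell. At an unadjusted p under 0.05, 3 of the 16 were higher and 9 lower, and by DESeq2 2 rose and 6 fell. Aptx, which removes AMP from aborted ligation ends, rose (log2 fold change 1.201, adjusted p = 0.000133), whereas the replicative polymerase Pole fell (-1.23, 1.58e-05), as did the clamp loader subunit Rfc1 (-0.69, 0.000348). None of the 3 reached 3-fold. The summed level of these 16 genes was 572 to 583 RPKM in ESCs, 388 to 421 in NPs and 667 to 707 in TET TKO. Among 8 proliferation markers 1, Mcm5, fell in NPs, and the sums of that list were 648 to 677 RPKM in ESCs, 519 to 539 in NPs and 801 to 850.0 in TET TKO. Their part in the repair genes was not tested.

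In TET TKO, 0 of the 5 other glycosylases and 0 of the 16 later genes rose or fell in edgeR's test. Of all genes tested there, 2.37% rose and 1.46% fell. At an unadjusted p under 0.05, 3 glycosylases were higher and 0 lower, and 6 later genes were higher and 1 lower. With DESeq2, 2 glycosylases and 2 later genes rose and 0 fell. The medians were 0.35 and 0.20, against 0.12 over all genes tested.

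TET enzymes, and deaminases that act on DNA, can make substrates for the repair. Whether each of the listed cytidine deaminases does so was not tested. In NPs 3 of 3 cytidine deaminases tested fell, where 16% of all genes fell. They were Apobec3 (log2 fold change -3.84, adjusted p = 4.84e-05), Apobec2 (-3.80, 1.97e-05) and Apobec1 (-3.18, 8.08e-06). Tet1 fell from 65.1 to 4.17 RPKM (-3.97, 1.92e-06) and Tet2 from 19.0 to 3.30 RPKM (-2.52, 1.03e-05), and Tet3 rose from 0.715 to 7.82 RPKM (3.45, 8.15e-05). In TET TKO, 0 of the 3 deaminases rose or fell in edgeR's test, where 2.37% of all genes rose and 1.46% fell. At an unadjusted p under 0.05 1 was lower, and 1 fell by DESeq2. Tet1 (log2 fold change -2.28, adjusted p = 8.67e-05) and Tet2 (-2.94, 1.74e-05) fell there.

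The partners of GADD45 proteins were 8 genes, including their kinase target Map3k4 and the cell cycle proteins they bind. Cdkn1a, the cyclin-dependent kinase inhibitor p21, rose in NPs (log2 fold change 1.37, adjusted p = 2.36e-05) and Ccnb1, cyclin B1, fell (-0.89, 0.000532). Cdkn1a is also among 10 p53 target genes, of which 1 rose and 2 fell, Trp53inp1 by the most (-1.69, 3.23e-05). Of all genes tested in NPs, 17.9% rose and 16% fell. In TET TKO, where Gadd45a rose, 0 of the 8 partners and 0 of the 10 p53 targets rose or fell in edgeR's test. Of all genes tested there, 2.37% rose and 1.46% fell, so 0 calls in lists of this size do not set them apart. At an unadjusted p under 0.05, 3 partners were higher and 0 lower, and 2 p53 targets were higher and 1 lower. Cdkn1a, in both lists, was higher without passing. Its means were 22.9 RPKM in ESCs and 37.6 in TET TKO (log2 fold change 0.71, adjusted p = 0.00903). DESeq2 gave 1 partner that rose and 0 p53 targets in either direction. The medians were 0.28 for the partners and -0.04 for the p53 targets.

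**Figure D4:**
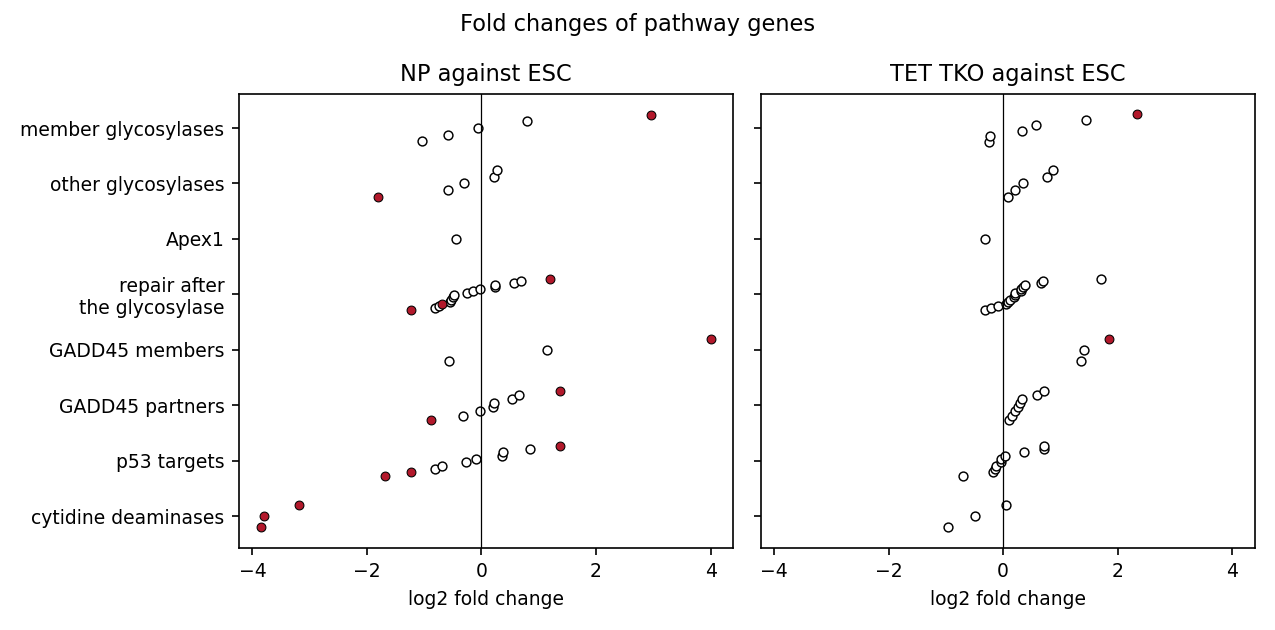
Log2 fold changes in NPs and in TET TKO against ESCs for the 10 genes, by role, and for the 5 other lists named on the axis (the TET genes and cell type markers are not drawn), with 1 point per gene tested, filled where the adjusted p was under 0.001. In NPs the deaminases lie between -3.84 and -3.18, whereas Smug1 and Gadd45g lie at 2.97 and 4.003; in TET TKO the filled points among the genes drawn are Tdg and Gadd45a.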

How the data were processed

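RNA-seq libraries of ESCs, NPs and TET TKO ESCs (3 each, biological replicates per the study's methods) were analysed. The authors trimmed single-end reads with Trimmomatic 0.38, aligned them to GRCm38 with STAR 2.6.1b and counted them per gene with featureCounts 1.6.2, using Ensembl gene models and ignoring strand. Reads matching several places or genes were not counted. The deposited values are raw counts. Columns of libraries that could not be assigned to a sample numbered 0.

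Counts were scaled by TMM and compared with the quasi-likelihood F-test of edgeR 4.0.16 (R 4.3.3) over genes with at least 1 RPKM in at least 1 library of the 2 groups, with Benjamini-Hochberg adjustment over all of them. The methods of the study give the limits of 0.001 on the adjusted p and 3 on the fold change. RPKM used the gene lengths in the files, and intervals are 95% intervals of the fit. DESeq2 1.42.0, library sizes alone, no filter, at least 10 counts in every library, all groups in 1 fit, the replicate number as a block, thinned TET TKO counts, TPM and each library left out in turn were alternatives. Repeated windows were found by matching exon windows, 40 per gene outside the 10 genes, to the 21 chromosomes of GRCm38, and promoters come from RefSeq (Python 3.11.15, numpy 2.4.6, matplotlib 3.10.9).

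On simulated counts, 81% of genes changed 4-fold and 94% of those changed 8-fold were recovered for NPs (15159 genes), and 71% and 92% for TET TKO (13938 genes). Recovery meant an adjusted p under 0.001. The changed genes, 100 per fold, were drawn only from genes above a minimum expected count. Far more genes were called in the data for NPs, so these rates do not give the recovery there.

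Named were the 10 genes, Tet1 to Tet3, genes whose exons overlap them, up to 3 genes per list with the largest change among those past the limits (or, with none, among those that rose or fell), and for each of the 10 past the limits the 2 genes nearest in pattern. The genes and lists were chosen with earlier results of these data known. Methylation data of the study were not used here.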

Additional observations from a re-analysis of the deposited data

How the results depend on the processing

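In NPs the rises of Smug1 (log2 fold change 2.69 to 3.11) and Gadd45g (3.53 to 4.23) passed in all 12 alternatives. Without 1 library each, 2 of the 10 genes rose and 0 fell every time, while over all genes 1541 to 2481 rose, 1382 to 2204 fell and 2464 to 3413 were past the study's limits, from 2720, 2425 and 3408. The number that fell was 3737 with DESeq2 and 3988 with no filter, where 5281 were past the limits. At an adjusted p under 0.05, 4996 genes rose and 4738 fell, and of the 10 genes 4 rose and 4 fell. The log2 fold change of Neil1 changed sign with library sizes alone (0.0123) and ran from -0.198 to 0.0753 without 1 library each, above 0 without ESC replicate 3 and without NP replicate 3.

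In TET TKO, 331 genes rose, 204 fell and 322 were past the limits. Without 1 library each these were 14 to 400, 36 to 202 and 50 to 329, the lowest without ESC replicate 1, and of the 10 genes 0 to 2 rose and 0 to 2 were past the limits. Library sizes alone gave 184 that rose. DESeq2 gave 1500, 1360 and 910, and no filter 1457, 975 and 1263; 4 of the 10 rose in either. At an adjusted p under 0.05 these were 3183, 1770 and 1147, with 5 of the 10 higher. The log2 fold change of Gadd45a was 1.69 to 1.92 throughout, and that of Tdg reversed to -0.0881 when its pseudogenes were added. The causes of the other changes were not tested.

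The main tests used no pairing by replicate number, and whether the numbers share a batch cannot be told from 3 libraries per group. Deviations of libraries with the same number correlated at -0.07, 0.01 and -0.16 in NPs and -0.09, 0.35 and 0.21 in TET TKO. Not every library correlated best with its own number, though ESC replicates 2 and 3 did so in TET TKO. With the replicate number as a block, 2524 genes rose and 2236 fell in NPs, and in TET TKO 725 rose, 423 fell and 674 were past the limits, where 3 of the 10 genes rose, Neil2 among them (log2 fold change 1.41, adjusted p = 0.000737).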

Other observations

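Hmgb1 and Nthl1, named after their values were seen, were the genes of the repair lists nearest to the limit in TET TKO. Hmgb1, a chromatin protein that takes part in long-patch repair, had a mean of 1.77 RPKM in ESCs and 5.82 in TET TKO (log2 fold change 1.71, adjusted p = 0.00107). Nthl1, a glycosylase for oxidized pyrimidines, had 22.8 and 42.1 RPKM (log2 fold change 0.88, adjusted p = 0.00122). In NPs neither passed, with log2 fold changes of 0.56 and -0.30. Whether repeated windows, as found for Tdg, bear on the counts of Hmgb1 and Nthl1 was not tested.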
